A study of Mus musculus with 4 samples.

Results

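The genes described here are 3 members of the early growth response family (Egr1, Egr2 and Egr3), their corepressors Nab1 and Nab2, and the orphan nuclear receptors Nr4a1, Nr4a2 and Nr4a3. They were taken by symbol from the gene list of the files, and all 8 of the 8 symbols were found once among 31053 genes. Their levels were followed across cell classes of mouse brain vascular-associated cells (BVACs) and between chronic social defeat (CSD) and home cage (HC) mice. The animals were adult male wild-type C57BL/6 mice. CSD mice spent 14 days in a cage shared with an aggressive CD-1 mouse, behind a perforated partition that was lifted for a brief encounter every day. Each HC mouse spent 14 days paired with a CD-1 mouse behind a partition that was never lifted. Cells were captured with CD31 antibody microbeads and collagenase II and counted with 10x Genomics 3′ chemistry, in 2 CSD and 2 HC libraries. Each library pooled several mice, so a value of 1 library is the average of its pool and the spread within a pool was not measured. The collagenase steps were run warm, the bead incubation and washes at room temperature and the last steps cold, the same for both groups. The paper proposes that a capillary endothelial population high in immediate-early genes, a kind of gene described below, may come from the isolation. It left this population and a microglial population high in such genes out of its cell communication analysis, since isolation or doublets may have influenced them. Egr1 is among the signature genes that it lists for these microglia. The part of isolation in the levels given here was not tested.

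EGR1, EGR2 and EGR3 are zinc finger transcription factors that bind GC-rich DNA. They are immediate-early genes: a growth factor, calcium or stress signal switches them on within minutes, through serum response factor and related factors on their promoters, and without new protein synthesis. NAB1 and NAB2 bind the EGR proteins and dampen them, and NAB2 is itself induced by EGR factors, which makes it a part of a feedback loop. NR4A1 (NUR77), NR4A2 (NURR1) and NR4A3 (NOR1) are nuclear receptors without a known physiological ligand, whose activity is set largely by how much is made. They are also immediate-early genes, in part through cyclic AMP response element binding protein (CREB), and are known for roles in vessel wall cells, macrophages and lymphocytes.

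Promoter windows of RefSeq, from 250 bases before to 50 bases after a start site on GRCm38.p6, were found for Egr2, Nab1, Nab2, Nr4a1, Nr4a2 and Nr4a3. The windows of the Nr4a genes are shown because they shared the letters TGACG, the short core of the CREB site, which was searched on both strands and lies within the full site TGACGTCA. Each of the 3 windows held 4 matches. Of all 32851 windows in the table, 20.8% held at least 1 match and 0.231% held at least 4. The limit of 4 is the count in the windows shown, so that share is a description and no test. The full site was in none of these 3 windows. Capitals mark TGACG or its reverse complement.
Nr4a1, chr15:101266596-101266895, plus strand: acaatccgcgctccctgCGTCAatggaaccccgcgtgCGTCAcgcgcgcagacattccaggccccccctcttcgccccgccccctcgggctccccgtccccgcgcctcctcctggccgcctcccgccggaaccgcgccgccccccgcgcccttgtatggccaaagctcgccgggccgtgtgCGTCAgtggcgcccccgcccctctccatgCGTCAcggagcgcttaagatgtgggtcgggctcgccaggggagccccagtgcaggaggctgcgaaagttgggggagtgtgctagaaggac
Nr4a2, chr2:57123954-57124253, minus strand: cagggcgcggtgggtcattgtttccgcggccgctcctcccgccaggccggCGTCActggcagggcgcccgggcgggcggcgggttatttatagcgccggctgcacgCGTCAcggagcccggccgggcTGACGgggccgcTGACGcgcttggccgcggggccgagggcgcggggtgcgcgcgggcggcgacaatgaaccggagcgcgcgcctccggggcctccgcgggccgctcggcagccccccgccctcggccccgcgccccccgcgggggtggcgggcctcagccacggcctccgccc
Nr4a3, chr4:48045055-48045354, plus strand: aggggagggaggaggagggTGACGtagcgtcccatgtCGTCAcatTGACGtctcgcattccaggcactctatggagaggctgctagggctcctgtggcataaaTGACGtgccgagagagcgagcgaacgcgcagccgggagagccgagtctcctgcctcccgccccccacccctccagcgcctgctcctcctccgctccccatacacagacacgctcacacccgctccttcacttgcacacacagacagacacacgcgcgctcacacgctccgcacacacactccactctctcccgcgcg
The window of Nab1 is shown for the EGR site GCGTGGGCG, which it held 2 times against 0.0213% of windows with at least 2 and 0.612% with at least 1. The limit of 2 is likewise its own count. Capitals mark the 2 EGR sites and 1 TGACG match. Egr2 had 5 windows in the table, and the third is shown, chosen for its CArG box, the site of serum response factor, which 1.63% of windows held. Its capitals mark the CArG box and 2 TGACG matches. The last 2 windows overlap it and hold the same matches, the second holds a CArG box without TGACG, and the first holds none of the motifs searched. These are descriptions of letters, and binding was not measured. The window of Nab2 held none of the motifs searched, which also included AAAGGTCA, the site of NR4A monomers, and TGANTCA, the AP-1 site.
Nab1, chr1:52500399-52500698, minus strand: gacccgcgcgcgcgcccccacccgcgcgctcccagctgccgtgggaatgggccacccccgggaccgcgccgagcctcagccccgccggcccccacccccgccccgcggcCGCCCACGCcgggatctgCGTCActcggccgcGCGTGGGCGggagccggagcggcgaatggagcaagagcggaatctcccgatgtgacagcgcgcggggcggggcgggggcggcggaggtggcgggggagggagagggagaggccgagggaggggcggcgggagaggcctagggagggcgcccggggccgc
Egr2, chr10:67537619-67537918, plus strand: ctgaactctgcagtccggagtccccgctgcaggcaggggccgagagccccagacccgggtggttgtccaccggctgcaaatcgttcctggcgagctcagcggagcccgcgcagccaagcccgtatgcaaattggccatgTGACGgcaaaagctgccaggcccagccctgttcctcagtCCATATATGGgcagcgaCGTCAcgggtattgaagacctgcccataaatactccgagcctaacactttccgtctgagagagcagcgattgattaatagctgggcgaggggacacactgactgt

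The libraries held 27297599 to 30361474 unique molecular identifiers (UMIs), each a counted RNA molecule, and 14415 barcodes passed as cells (at least 500 UMIs and 250 genes, at most 25% mitochondrial UMIs). Cells were assigned to a class by fixed marker genes, none of which is among the 8 genes, and 12296 cells (85.3%) received one. Endothelial cells numbered 897 to 1711 per library, microglia 563 to 1474 and choroid plexus cells 94 to 868. Arterial smooth muscle cells, pericytes, ependymal cells, astrocytes and T cells had at least 10 cells in every library, and the other classes were not tested. Levels are given as CPM, the UMIs of a gene per 1000000 UMIs summed over the class in a library. In such sums, fewer positive cells and less RNA per cell cannot be told apart. Barcodes with 1 to 100 UMIs served as a measure of free RNA. In each of the 8 tested classes its own marker list had the highest sum of all lists. The assignment fixed this result, since most marker UMIs of a cell had to come from the list of its class. It is therefore no check of class identity. The same rule limited the markers of other classes, so the sums below describe what remained after the assignment. Summed endothelial markers were at 19029 to 23435 CPM in endothelial cells and at 81.0 to 130.6 CPM in microglia. Endothelial cells also held 781 to 1368 CPM of oligodendrocyte markers and 284 to 514 CPM of astrocyte markers. Orders of levels below are among the 8 tested classes, and classes with fewer cells could lie higher. No doublet caller was run, 1462 cells with markers of more than 1 class were left out, and pairs of libraries shared 0 to 9 cell barcodes.

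Egr1, the best known of the family, was highest in microglia and arterial smooth muscle cells. Microglia held 3299 CPM in the CSD library numbered 1 and 1849 in that numbered 2, and 3208 and 1998 in the HC libraries numbered alike. Arterial smooth muscle cells held 2303, 2371, 1968 and 2481 CPM in the same order. The 2 classes overlapped, and their log2 difference was 0.21 ± 0.19 (SE, adjusted p = 0.349, edgeR). Pericytes (1867 ± 183 CPM, SD, n = 4 libraries), ependymal cells (1578 ± 384) and endothelial cells (1188 ± 286) followed. Astrocytes (481 ± 251) and choroid plexus cells (418 ± 61.0) had means in the range of free RNA, which held 342 to 545 CPM. T cells held the least, 76.7 to 98.1 CPM. Ependymal cells, the ciliated lining of the ventricles, held 1819 and 1237 CPM in the CSD libraries and 1991 and 1267 in the HC libraries, again with the libraries numbered 1 on top. Pericytes, the mural cells of capillaries, held 1657 and 1837 CPM in the CSD libraries and 1873 and 2102 in the HC libraries. Both CSD libraries thus lay below both HC libraries, as they did in 21.8% of all genes tested in pericytes. The log2 difference of CSD over HC was -0.12 ± 0.23 (adjusted p = 0.931, edgeR). Pericytes and ependymal cells were not called as different under any of 3 scalings (adjusted p = 0.730 under trimmed mean scaling, edgeR). Ependymal cells were above endothelial cells by a log2 difference of 0.38 ± 0.19, which was not called under trimmed mean scaling (adjusted p = 0.0860) and was called under class totals (0.42, adjusted p = 0.0431) and with DESeq2 size factors (0.57, adjusted p = 0.00788). Of the steps between neighbouring classes in this order, endothelial over astrocyte (log2 difference 1.63 ± 0.23, adjusted p = 6.73e-09, with 44.6% of all genes called between these classes) and choroid plexus over T cell (3.50 ± 0.35, adjusted p = 9.53e-14, 45.1%) held under all 3 scalings of the class sums. The order of astrocytes and choroid plexus cells turned with the scaling, from -1.0 under trimmed mean scaling, where 50.4% of all genes were called, to 0.06 under class totals.

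Among single cells, an Egr1 UMI was found in 84.7% to 90.2% of microglia and in 28.4% to 45.4% of endothelial cells per library. In T cells, which had the lowest level, the share was 12.1% to 26.3%. Median depth was 1887 to 5272 UMIs per cell in microglia, 873 to 1538 in endothelial cells and 1229 to 4082 in T cells. After each cell was thinned to 500 UMIs, the share was 48.7% to 68.4% in microglia and 18.6% to 29.9% in endothelial cells, so the 2 classes did not overlap at equal depth.

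Egr2, known from hindbrain patterning and myelination, was a gene of low level. Microglia held 49.4 and 32.7 CPM in the CSD libraries and 44.6 and 34.4 in the HC libraries. Arterial smooth muscle cells held 25.7, 23.5, 18.1 and 19.1 CPM, all below microglia, with a log2 difference of 0.98 ± 0.26 (adjusted p = 0.000874) against 58.7% of all genes called between these classes. Endothelial cells held 3.08 to 12 CPM, close to the 3.62 to 8.53 CPM of free RNA.

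Egr3, the third member, had its highest levels among the 8 tested classes in endothelial cells and microglia. Fibroblasts, which were not tested, had a mean of 78.1 CPM from 17 UMIs, and neurons 162 CPM from 4 UMIs. Endothelial cells held 101 and 60.3 CPM in the CSD libraries and 99.9 and 32.9 in the HC libraries. Microglia held 76.1, 32.7, 93.8 and 33.9 CPM. In both classes the libraries numbered 1 were above those numbered 2. The fit between classes held a term for each library, which takes up such shared shifts. The classes were not called as different (log2 difference 0.05 ± 0.15, adjusted p = 0.813, edgeR). Choroid plexus cells held 0.467 to 1.56 CPM, below the 18.4 to 29.1 CPM of free RNA.

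Nr4a1 was highest in arterial smooth muscle cells, the contractile cells of the arterial wall. They held 965 and 1128 CPM in the CSD libraries and 1097 and 1069 in the HC libraries. Endothelial cells came next with 258, 309, 210 and 186 CPM. No library overlapped between these classes, and the log2 difference was 2.38 ± 0.18 (adjusted p = 5.25e-19). All 8 genes were called between arterial smooth muscle and endothelial cells, where 44.5% of all genes were called. This pair of classes was singled out after its values were seen. The log2 difference was positive for 7 genes, from 1.19 for Nab2 to 2.38 for Nr4a1, and Egr3 was lower in smooth muscle by a log2 difference of 1.76 ± 0.25 (adjusted p = 8.51e-09). All 8 calls held under each of 3 scalings. Below smooth muscle, Nr4a1 could not be told apart between endothelial cells, ependymal cells (181 to 309 CPM) and microglia (139 to 290.0 CPM), whose neighbouring steps had adjusted p = 0.806 and 0.776. Choroid plexus cells had the lowest mean, from 30.9 to 48.9 CPM, below the 60.3 to 96.5 CPM of free RNA. Astrocytes, at 23.4 to 191 CPM, overlapped them. The log2 difference of astrocytes over choroid plexus cells was -0.37 under trimmed mean scaling (adjusted p = 0.419, edgeR). It was 0.69 under class totals and 0.39 with DESeq2 size factors, and was called under none of the 3.

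Nr4a2 and Nr4a3 had their highest levels in T cells, where NR4A receptors are induced by antigen receptor signals. T cells numbered 12 to 33 per library. For Nr4a2 they held 563 and 354 CPM in the CSD libraries and 883 and 522 in the HC libraries, all above the 265 to 334 CPM of arterial smooth muscle cells. The fitted log2 difference depended on the scaling. It was 0.17 ± 0.26 (adjusted p = 0.658) under trimmed mean scaling, where the median gene stood at -1.12 between these classes, 0.86 (adjusted p = 0.0157) under class totals and 0.80 (adjusted p = 0.0234) with DESeq2 size factors. For Nr4a3 T cells held 205, 177, 245 and 109 CPM from 8, 13, 10 and 5 UMIs, and smooth muscle held 84.9, 54.2, 52.8 and 38.2. That difference was 1.02 ± 0.35 (adjusted p = 0.0189, with 36.0% of all genes called) and kept its direction and call under all 3 scalings. Endothelial cells had 59.6 to 146 CPM of Nr4a2. Microglia had 24.0, 2.88, 18.7 and 1.39 CPM, from 71, 8, 44 and 3 UMIs, so that the 2 libraries numbered 1 held nearly all of it. Endothelial cells were above ependymal cells for Nr4a2 by a log2 difference of 1.57 ± 0.31 (adjusted p = 1.03e-05, with 59.6% of all genes called). Nr4a3 had a further high level in ependymal cells, from 29.5 to 91.1 CPM over the libraries. Microglia held 24.0, 11.2, 26.3 and 6.97 CPM, a log2 difference of 1.48 ± 0.28 (adjusted p = 4.41e-06, with 65.3% of all genes called). The Nr4a genes thus did not share 1 order of classes either: smooth muscle led for Nr4a1 and T cells for Nr4a3.

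Nab1 had its highest mean in arterial smooth muscle cells, with 151 and 163 CPM in the CSD libraries and 110 and 141 in the HC libraries. Endothelial cells held 70.4, 58.6, 52.5 and 64.2 CPM, all below smooth muscle, and microglia 39.9, 24.5, 37.4 and 25.1. Choroid plexus cells held 22.8 to 28.5 CPM. Pericytes spread widely, with 173, 34.0, 102 and 58.1 CPM from 5 to 8 UMIs per library, the first above all smooth muscle libraries. Smooth muscle was above pericytes by a log2 difference of 1.56 ± 0.32 under trimmed mean scaling (adjusted p = 9.36e-05, edgeR). There 24.5% of all genes were called. The difference was 1.02 with DESeq2 size factors (adjusted p = 0.0245) and 0.92 under class totals, where it was not called (adjusted p = 0.0533). Nab2 was detected at 16.2 to 43.7 CPM in microglia and 16.6 to 35.8 CPM in smooth muscle cells. These were not called as different (log2 difference 0.27 ± 0.28, adjusted p = 0.421, edgeR). Pericytes had the highest mean of Nab2, 42.1 ± 21.8 CPM, from 2 to 5 UMIs per library.

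**Figure D1:**
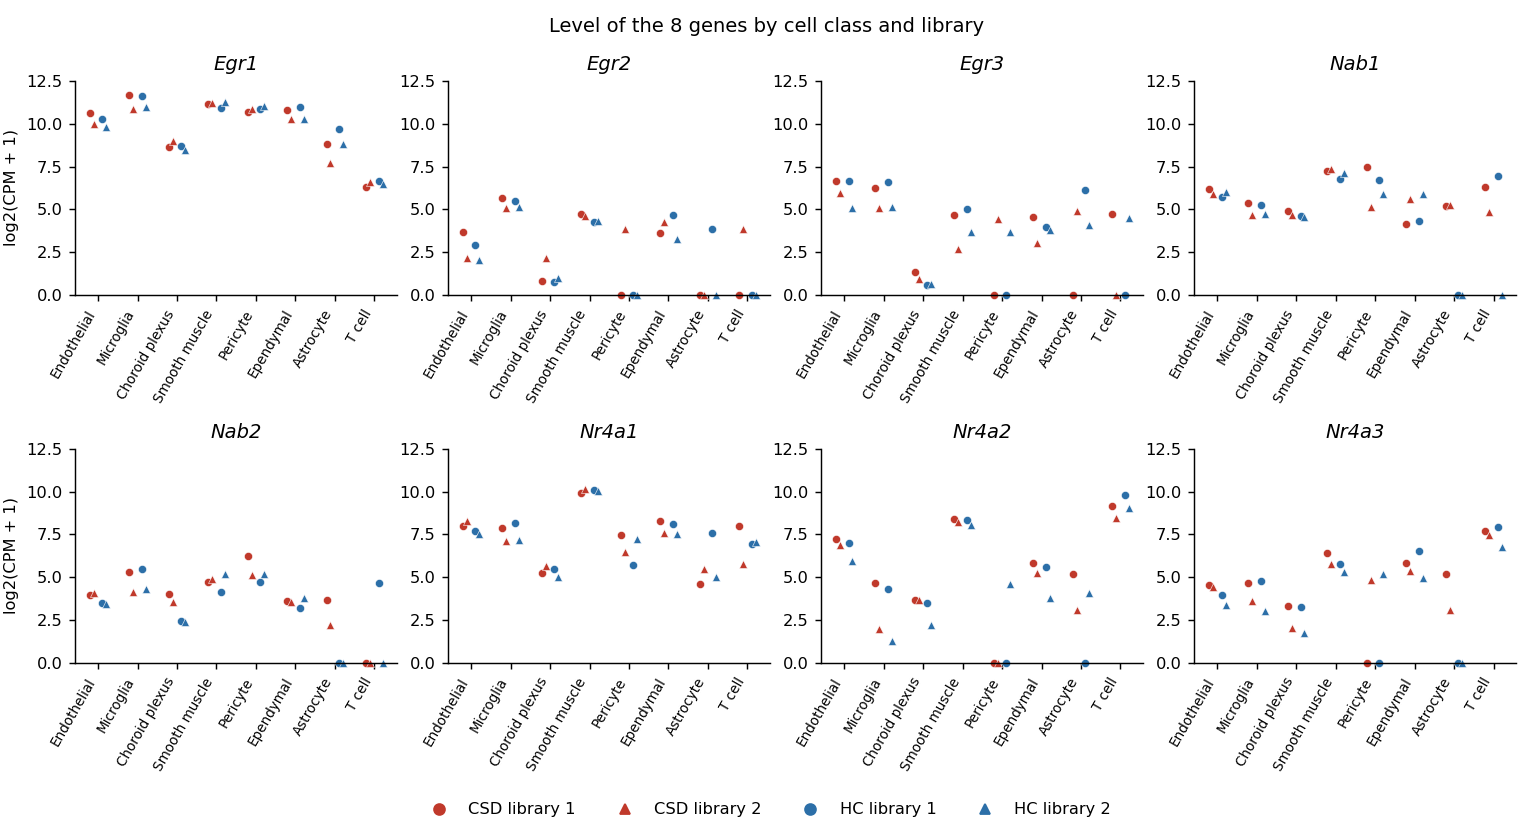
Each panel plots 1 gene as log2(CPM + 1) on the vertical axis against 8 cell classes, with 1 point per library (red CSD, blue HC, circles library 1, triangles library 2). Nr4a1 stands at 965 to 1128 CPM in arterial smooth muscle cells in all 4 libraries, and Nr4a2 and Nr4a3 peak in T cells.

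Between microglia and endothelial cells, the 2 largest classes, 5 of the 8 genes were called. Of all genes, 62.3% were called between these classes, so the count among the 8 was close to the background. Higher in microglia were Egr2 (log2 difference 2.97 ± 0.24, adjusted p = 3.86e-18), Nab2 (1.46 ± 0.24, adjusted p = 1.34e-07) and Egr1 (1.41 ± 0.19, adjusted p = 1.40e-09). Lower in microglia were Nr4a2, with a log2 difference of -3.00 ± 0.23 (adjusted p = 8.59e-19), and Nab1, with -0.65 ± 0.17 (adjusted p = 0.000779). Egr3, Nr4a1 and Nr4a3 were not called, with log2 differences of -0.05 ± 0.15, 0.01 ± 0.17 and 0.26 ± 0.23. Nr4a3 passed without CSD replicate 2 (0.58, adjusted p = 0.0394). The Egr and Nr4a genes thus did not share 1 order of the classes: microglia stood above endothelial cells for Egr1 and below them for Nr4a2. The median gene was at -0.07 in this comparison, and at -0.39 when class totals replaced trimmed mean scaling, where the same 5 genes were called.

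Along the vessel, arterial cells were above capillary cells in 3 of the 5 genes that could be tested, with 23.0% of all genes called. Nr4a2 held 323 and 275 CPM in arterial cells of the CSD libraries and 352 and 82.6 in the HC libraries, against 97.3, 114, 88.5 and 50.6 CPM in capillary cells. It was higher in the arterial cells of every library, with a log2 difference of 1.55 ± 0.23 (adjusted p = 3.63e-06). Egr1 differed by 0.84 ± 0.15 (adjusted p = 0.000104) and Nr4a1 by 0.83 ± 0.20 (adjusted p = 0.00286). Venous cells were above capillary cells for Nr4a2 (1.10 ± 0.26, adjusted p = 0.00240) and Egr1 (0.66 ± 0.16, adjusted p = 0.00346), with 16.4% of all genes called. The call for Nr4a1 in arterial cells was lost without HC replicate 1 (0.58, adjusted p = 0.105). The venous calls were lost without CSD replicate 1 (Nr4a2 0.63, adjusted p = 0.266; Egr1 0.49, adjusted p = 0.132), and that for Egr1 also without HC replicate 1 (0.52, adjusted p = 0.0668). Between arterial and venous cells edgeR called 0 of the 5 genes, 1 had an unadjusted p under 0.05 (Egr3, 1.06 ± 0.42, adjusted p = 0.0743), and DESeq2 called 0. Of all genes 19.9% were called and 31.6% had an unadjusted p under 0.05. Without CSD replicate 1 that value of Egr3 passed (1.93, adjusted p = 0.0240), and so did arterial over capillary (0.78 ± 0.29, adjusted p = 0.0565, with all libraries) at an adjusted p of 0.0465. Arterial cells numbered 20 to 51 and venous cells 23 to 30 per library. A venous cell needed 2 UMIs from at least 1 of 7 markers. Icam1, listed below as an EGR target, is among them. The venous gate may therefore not be independent of EGR activity, which was not measured. The part of Icam1 in the venous values was not tested.

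**Figure D2:**
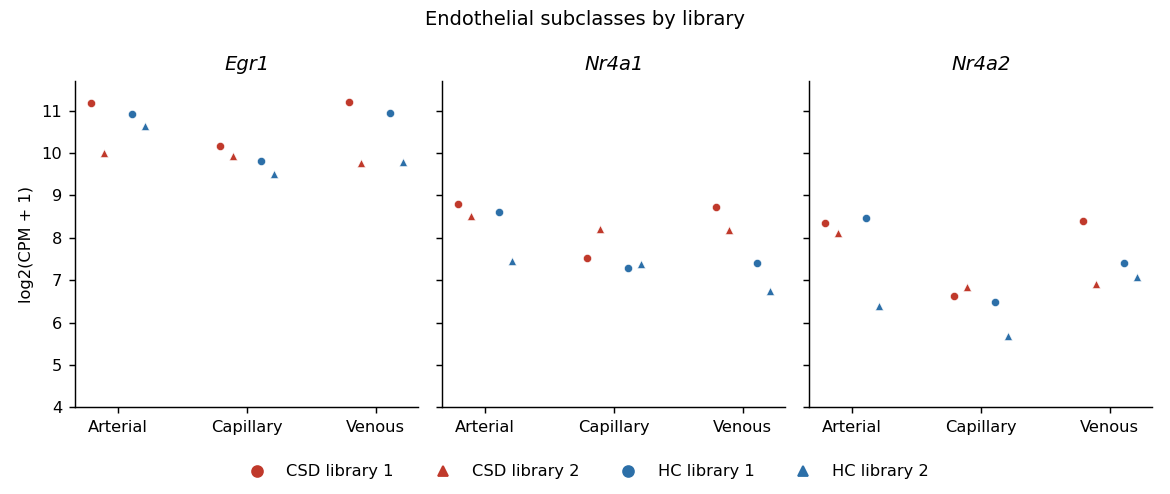
Egr1, Nr4a1 and Nr4a2 are plotted as log2(CPM + 1) against arterial, capillary and venous endothelial cells, with 1 point per library (red CSD, blue HC). For Nr4a2 the arterial point of each library lies above its capillary point, from 82.6 against 50.6 CPM in HC library 2 to 352 against 88.5 CPM in HC library 1.

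Within endothelial cells the UMIs of Egr1 were concentrated in few cells. The 10% of endothelial cells with the most Egr1 UMIs held 65.1% to 74.7% of them per library, while the same cells held 23.0% to 29.3% of all UMIs. In microglia the top 10% held 29.1% to 31.9% of Egr1 UMIs and 12.2% to 12.8% of all UMIs. Arterial smooth muscle cells lay between, at 33.4% to 39.3% of Egr1 UMIs and 18.0% to 23.5% of all UMIs. In these counts Egr1 was spread more evenly over microglia, which also had the higher level. Cells were ranked by the same counts without thinning, and fewer UMIs per cell raise the share of the top cells. For Nab1, with 54 to 118 UMIs per library, the top 10% of microglia held 88.2% to 100%. The spread at equal depth was not tested.

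Endothelial cells with an Egr1 UMI held Nr4a1, Nr4a2 or Egr3 more often than those without, again after thinning to 500 UMIs. Among endothelial cells with an Egr1 UMI, 15.8% and 21.0% held Nr4a1 in the CSD libraries and 18.1% and 15.2% in the HC libraries. Among those without, the shares were 5.83%, 8.96%, 3.69% and 3.96%. Nr4a2 was found in 8.96%, 10.9%, 8.29% and 4.33% with Egr1 and in 2.19%, 3.72%, 2.41% and 1.80% without, and Egr3 in 2.48% to 8.29% with and 0.793% to 2.31% without. All 4 libraries had the higher share in the cells with Egr1 for these 3 genes. In few cells, so did Egr2 (0.310% to 1.55% with, 0% to 0.284% without) and Nr4a3 (0.310% to 1.61% with, 0.0720% to 0.984% without). Nab1 and Nab2 did not share this. Nab1 was at 1.79%, 2.02%, 2.59% and 1.55% with Egr1 and 2.43%, 2.95%, 2.13% and 2.95% without. Nab2 was at 0% to 1.04% with Egr1 and 0.365% to 0.852% without. Arterial, capillary and venous cells were pooled in these shares, and the part of the subclasses was not tested. Microglia also had the higher share of Nr4a1 with Egr1 in all 4 libraries, but by less, 6.82% to 10.5% against 4.40% to 8.05%. Arterial smooth muscle cells did so too, at 35.9%, 45.7%, 35.8% and 38.6% with Egr1 and 24.7%, 30.8%, 23.3% and 36.7% without. No test was made over cells, since cells of 1 library are not replicates.

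**Figure D3:**
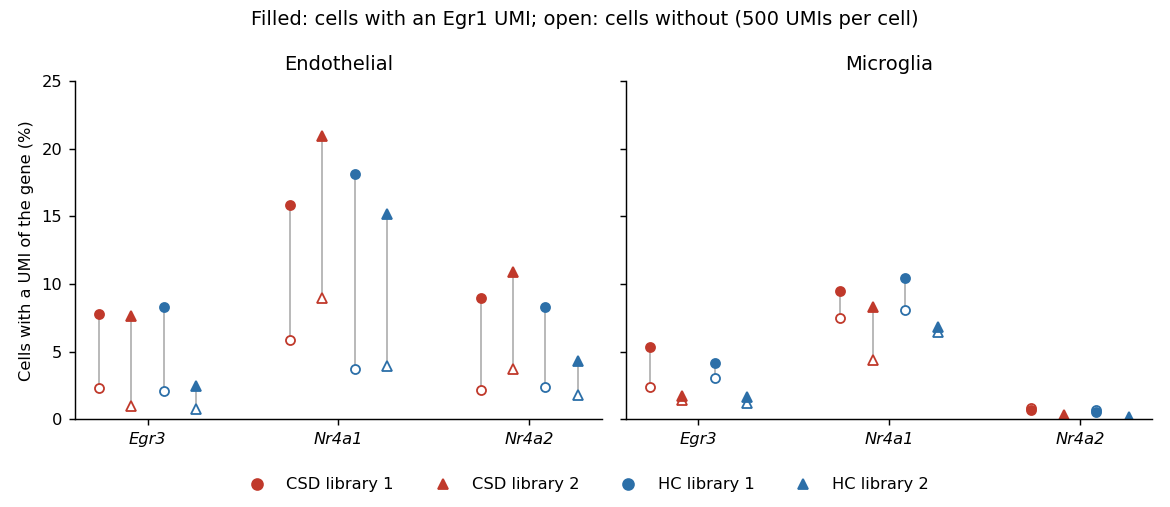
The vertical axis is the share of cells with a UMI of Egr3, Nr4a1 or Nr4a2, in percent, for cells with an Egr1 UMI (filled) and without (open), joined within a library, in endothelial cells and microglia thinned to 500 UMIs. For Nr4a1 in endothelial cells the open points lie at 3.69% to 8.96% and the filled points at 15.2% to 21.0%.

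Across the 44 class and library sums, the genes most like each of the 8 were listed by the Pearson correlation of log2(CPM + 10) among 9460 genes. The points share libraries and nested endothelial classes, so the values are descriptions. Egr1 was most like Fos (r = 0.90), Jun (0.89) and Rhob (0.87), of which Fos and Jun are the AP-1 factors that accompany it as immediate-early genes. Nr4a1 was most like Btg2 (0.81), Cab39 (0.81) and Gadd45b (0.76). Nr4a2 was most like Serbp1, Ybx1 and Fosl2 (0.82, 0.81 and 0.79), and Nr4a3 like Nfil3, Fam107b and Glipr2 (0.78, 0.78 and 0.77). Egr2 was closest to Hebp1 (0.72), Egr3 to Zcchc6 (0.79), Nab1 to Pdcl3 (0.75) and Nab2 to Adap2 (0.71). Between members, the highest correlation was 0.58 for Nr4a2 with Nr4a3.

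CSD was compared with HC over the 2 libraries of each group. In endothelial cells all 8 genes had a positive log2 difference, from 0.19 for Nab1 to 0.89 for Nr4a3, but edgeR called 0 of 8, with 2 at an unadjusted p under 0.05, and DESeq2 called 0. Of all genes 0.0491% were called and 7.82% had an unadjusted p under 0.05. In 3 of the 8 genes both CSD libraries lay above both HC libraries, as they did in 14.6% of all genes. Nr4a1 held 258 and 309 CPM in the CSD libraries and 210 and 186 in the HC libraries, which did not overlap, with a log2 difference of 0.56 ± 0.16 (adjusted p = 0.398). Without CSD replicate 1 that value was 0.68 and passed (adjusted p = 0.00628). With 1 CSD library the spread comes from the 2 HC libraries alone, and 419 of all genes passed there, against 5 with all libraries. Nr4a3 held 22.5 and 20.8 CPM against 14.8 and 9.25 (0.89 ± 0.30, adjusted p = 0.526), and Nab2 held 14.8 and 16.1 against 10.2 and 9.76 (0.67 ± 0.29, adjusted p = 0.637). Free RNA had Nab2 means of 12.6 CPM in CSD and 5.16 in HC, without overlap, and its part here was not tested. Egr1 held 1559 and 1027 CPM against 1257 and 909.5 (0.30 ± 0.25, adjusted p = 0.814), and Nr4a2 146 and 119 against 124 and 59.6 (0.57 ± 0.31, adjusted p = 0.727). Both overlapped between the groups, as did Egr2, Egr3 and Nab1. The sign for Egr1 and Egr3 turned negative in endothelial cells with at least 5000 UMIs (-0.05 and -0.39), a limit chosen after seeing the data. Other marker lists also moved with the groups. Summed oligodendrocyte markers were at 1368 and 1119 CPM in CSD and 799 and 781 in HC endothelial cells. Of these 6 markers, 1 did not overlap upwards and 2 did so downwards. The same list was at 30.5 to 38.2 CPM in microglia. Venous markers were at 1049 and 1222 against 840.4 and 643, with 5 of 7 upwards. Icam1, 1 of these 7, is also among the EGR targets below, at 195 and 283 against 136 and 73.5 CPM. Cells gated as venous numbered 24 and 30 in CSD and 23 and 26 in HC libraries, among 1158, 1163, 897 and 1711 endothelial cells. The part of these lists in the differences was not tested.

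Capillary endothelial cells, the largest subclass with 617 to 1268 cells per library, gave like values. Nr4a1 held 184 and 296 CPM in the CSD libraries and 155 and 167 in the HC libraries (log2 difference 0.64 ± 0.21, adjusted p = 0.338). Nr4a2 held 97.3 and 114 against 88.5 and 50.6 (0.67 ± 0.24, adjusted p = 0.419), and Nr4a3 20.5 and 17.1 against 9.64 and 8.19 (1.11 ± 0.36, adjusted p = 0.339). Egr1 held 1152 and 977 against 896 and 728 (0.45 ± 0.17, adjusted p = 0.472). For these 4 genes and for Nab2 both CSD libraries lay above both HC libraries, as they did in 16.0% of all genes, while Egr2, too low to test, lay below in CSD (means of 2.81 and 4.56 CPM from 19 UMIs) and the other genes overlapped. edgeR called 0 of the 7 genes tested, with 4 at an unadjusted p under 0.05, and DESeq2 called 0. Of all genes 0.111% were called and 8.97% had an unadjusted p under 0.05. Nr4a1 passed without the filter on low counts (0.66, adjusted p = 0.0366, edgeR). When each library was left out, its log2 difference ran from 0.27 to 0.92. The range was 0.29 to 1.13 for Nr4a2, 0.97 to 1.28 for Nr4a3 and 0.28 to 0.62 for Egr1. Without CSD replicate 2, Egr1 (0.58, adjusted p = 0.0214) and Egr3 (0.87, adjusted p = 0.0298) passed. With 1 CSD library the spread again comes from the HC libraries alone, and 238 and 152 of all genes passed without CSD replicates 1 and 2, against 10 with all libraries. Venous markers overlapped between the groups in capillary cells (324 and 388 against 338 and 362 CPM). Summed oligodendrocyte markers (1189 and 1064 against 755 and 778) and arterial smooth muscle markers (122 and 71.8 against 151 and 168) did not. Of the 6 oligodendrocyte markers, 1 did not overlap upwards, 1 did so downwards and 4 were at 0 in at least 1 library. Of the 6 smooth muscle markers, 0 did so upwards and 3 downwards. The part of these lists was not tested.

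In microglia edgeR called 0 of 8, with 0 at an unadjusted p under 0.05, and DESeq2 called 0. Of all genes 0.0% were called by edgeR, with 134 at an unadjusted p under 0.05, and 1 by DESeq2. The log2 differences ran from -0.20 for Egr3 to 0.43 for Nr4a2. For all 8 genes the groups overlapped, where 22.0% of all genes did not. The 2 libraries numbered 1 stood above the 2 numbered 2 for all 8 genes and for 38.3% of all genes, and over 9792 genes the deviations of libraries with the same number had a correlation of 0.46. The difference of the CSD effect between endothelial cells and microglia was tested as an interaction. It was positive for all 8 genes, from 0.15 for Nab1 to 0.87 ± 0.46 for Nab2. edgeR called 0 of 8, with 0 at an unadjusted p under 0.05, and DESeq2 called 0. Of all genes 0.0% were called and 3.18% had an unadjusted p under 0.05.

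**Figure D4:**
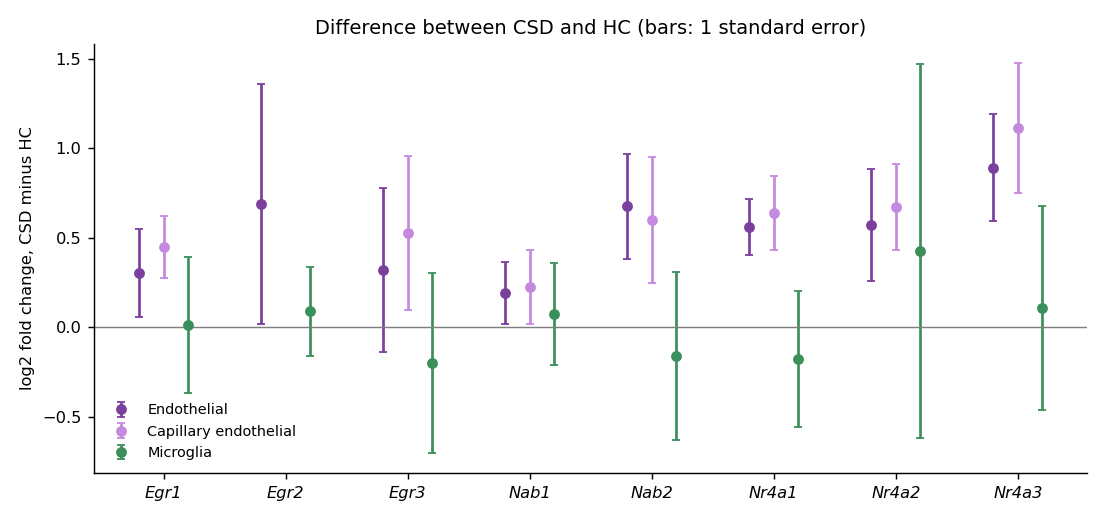
The vertical axis is the log2 fold change of CSD over HC from edgeR, with bars of 1 standard error over 2 libraries per group, for each gene in endothelial cells, capillary endothelial cells (Egr2 was not tested there) and microglia. The endothelial points lie above 0 for all 8 genes, with Nr4a3 at 0.89 ± 0.30, and none was called.

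In choroid plexus cells, the epithelium that makes cerebrospinal fluid, Nab2 was higher in CSD. It held 15.5 and 10.6 CPM in the CSD libraries (119 and 24 UMIs) and 4.32 and 4.20 in the HC libraries (37 and 39 UMIs), with no overlap. The log2 difference was 1.65 ± 0.26 (adjusted p = 0.0222, edgeR), and Nab2 was the only one of the 6 genes tested to be called, where 0.0605% of all genes were called. The share of choroid plexus cells with a Nab2 UMI was 20.1% and 21.3% in CSD and 9.55% and 4.38% in HC, at median depths of 18708.5, 24343.5, 23808 and 10675.5 UMIs. The call was lost with DESeq2 (1.62, adjusted p = 0.204), without CSD replicate 1 (1.31, adjusted p = 0.168), without HC replicate 2 (1.65, adjusted p = 0.9999) and under library totals (1.68, adjusted p = 0.0524), while the log2 difference stayed between 1.31 and 1.81 when single libraries were left out. Summed endothelial markers were at 193 and 203 CPM in CSD and 160.2 and 173 in HC choroid plexus cells, without overlap, and their part was not tested. In cells with at least 5000 UMIs the levels were 15.0 and 10.8 against 4.29 and 4.06 CPM.

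Nab2 was also higher in the free RNA of both CSD libraries, with 14.4 and 10.8 CPM in the CSD libraries and 4.63 and 5.69 in the HC libraries. Nab2 in choroid plexus cells, at 15.5 and 10.6 CPM in CSD and 4.32 and 4.20 in HC, stood near its level in free RNA. Summed choroid plexus markers in free RNA were 5289 and 1229 CPM in CSD and 6458 and 4975 in HC, with overlap. The part of free RNA in the choroid plexus result was not tested. Stat6, the gene next to Nab2, held 7.80 and 8.80 CPM in CSD and 4.56 and 3.88 in HC choroid plexus cells (log2 difference 0.92 ± 0.29, adjusted p = 0.9999). The other genes tested had log2 differences of 0.14 for Nr4a1 to 0.73 ± 0.33 for Nr4a2 (11.4 and 11.9 against 10.2 and 3.66 CPM). Of the 8 genes, 4 had both CSD libraries above both HC libraries in choroid plexus cells, against 16.2% of the genes tested there. Among the 4, Egr3 was too low to test.

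**Figure D5:**
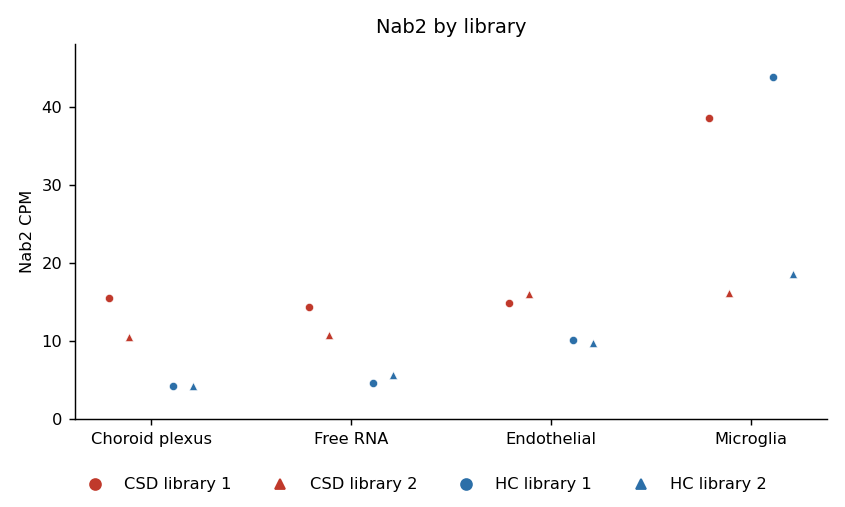
Nab2 in CPM on the vertical axis, from 0, for choroid plexus cells, free RNA, endothelial cells and microglia, with 1 point per library (red CSD, blue HC). The CSD points lie above the HC points in the first 3, at 15.5 and 10.6 against 4.32 and 4.20 CPM in choroid plexus cells, and overlap in microglia.

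In the other classes 31 tests of the 8 genes were possible. edgeR called 0, with 5 at an unadjusted p under 0.05, and DESeq2 called 0. Of all genes, 0.0% were called in T cells, arterial smooth muscle cells, ependymal cells and venous endothelial cells, 0.131% in pericytes, 0.371% in astrocytes and 0.108% in arterial endothelial cells. Of the 5 at an unadjusted p under 0.05, 4 were in capillary cells and 1 was Nr4a1 in venous endothelial cells. Venous cells held 420 and 288 CPM of Nr4a1 in CSD and 168 and 107 in HC (1.27 ± 0.39, adjusted p = 0.384). There 8.96% of all genes had an unadjusted p under 0.05. Arterial smooth muscle cells, which held the most Nr4a1, gave a log2 difference of -0.07 ± 0.19 for it. Of their 8 log2 differences 6 were positive. Both CSD libraries lay above both HC libraries there for 3 of the 8 genes (Egr2, Nab1 and Nr4a3), against 16.1% of all genes. In astrocytes they did so for 3 genes with 2 to 13 UMIs each, all too low to test, against 13.9% of the genes tested there.

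Related genes were read from set lists, which were chosen with earlier results of these data known. Their counts are therefore descriptions and no independent evidence. Of 22 immediate-early companions tested in endothelial cells, 21 had a positive log2 difference, with a median of 0.54 against -0.01 over all genes, and edgeR called 0. Those with the smallest p were Maff (1.64 ± 0.22, adjusted p = 0.0771), Fosl2 (1.19 ± 0.21, adjusted p = 0.163) and Trib1 (0.92 ± 0.18, adjusted p = 0.199). Of 9 genes of feedback on the ERK pathway, which carries growth factor signals to these promoters, 8 were positive with a median of 0.62, led by Spry1, an inhibitor of receptor signalling (1.15 ± 0.17, adjusted p = 0.120), with the phosphatase genes Dusp2 (1.15 ± 0.27, adjusted p = 0.295) and Dusp1 (0.68 ± 0.20, adjusted p = 0.420) next. The 15 upstream factors had a median of -0.02 with 7 positive, and Crem, a factor of the CREB family, had the smallest p (1.08 ± 0.23, adjusted p = 0.236), before Srf (0.59 ± 0.24, adjusted p = 0.620) and Mef2d (0.46 ± 0.20, adjusted p = 0.652). The 6 known EGR targets had a median of 0.05, with Icam1 at 1.24 ± 0.30 (adjusted p = 0.296). Icam1 encodes an adhesion receptor for leukocytes and was also 1 of the venous markers. The growth factor genes Pdgfb (-0.43 ± 0.20, adjusted p = 0.664) and Pdgfa (-0.33 ± 0.28, adjusted p = 0.820) came next in this list, with the opposite sign. The 3 family members and partners had a median of 0.05, with Rxra at 0.71, Rxrb at -0.17 and Chd4 at 0.05. In microglia the medians were 0.05 for 21 immediate-early companions, 0.21 for 7 feedback genes, 0.03 for 14 upstream factors, 0.07 for 8 EGR targets and 0.33 for 3 family members and partners, and edgeR called 0 in each list.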

How the data were processed

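Single-cell libraries of brain vascular-associated cells from 2 CSD and 2 HC pools of mice were analysed. The authors deposited UMI counts per gene and barcode, unfiltered, made with Cell Ranger (4.0 on GRCm38/mm10 per the submitters' processing notes). The 8 genes and all gene lists were chosen with earlier results of these data known. Cells needed at least 500 UMIs, 250 genes and at most 25% mitochondrial UMIs. A class needed 3 marker UMIs from 2 markers and 70% of all marker UMIs, and an endothelial subclass 2 UMIs from 1 marker and 70%. These limits were set on the files before CSD was compared with HC. Counts were summed per class and library where every library had at least 10 cells, and fitted with edgeR 4.0.16 (quasi-likelihood test, trimmed mean (TMM) scaling, Benjamini-Hochberg adjustment over all genes, threshold 0.05) in R 4.3.3, with DESeq2 1.42.0 as an alternative. Differences between classes or subclasses, and the interaction, were fitted with the libraries of both groups together and with library as a block. All 8 genes were named, with the 3 genes most like each and up to 3 genes of smallest p in each list. Python 3.11.15, numpy 2.4.6 and scipy 1.17.1 were used. The fits were tested on simulated data. Other settings were at least 1000 UMIs per cell, a complexity filter, a stricter gate (5 UMIs, 3 markers, 90%), no filter on low counts, a replicate block and each library left out. Class totals in place of TMM scaling, and cells with at least 5000 UMIs, were added after seeing the data. Each library is a pool, so p-values of CSD against HC measure only the spread between these libraries. Those between classes and of the interaction measure the spread left after the library block.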

Additional observations from a re-analysis of the deposited data

Results flagged for a closer look

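Free RNA, measured in barcodes too shallow to be cells, entered no test. The mean level of Nab2 there was 2.45 times as high in the CSD libraries as in the HC libraries, with 14.4 and 10.8 CPM against 4.63 and 5.69. The mean level of Egr3 was 1.42 times as high, with 25.1 and 29.1 CPM against 19.7 and 18.4. For both genes the 2 CSD libraries lay above the 2 HC libraries, as they did in 14.2% of the 14611 genes with at least 10 UMIs in free RNA, while 22.5% lay below. The other 6 genes overlapped, with Egr1 at 0.927 and Nr4a1 at 0.897 times the HC mean.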

How the results depend on the processing

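Between CSD and HC, the count of genes called ran from 0 to 1 in endothelial cells when each library was left out (Nr4a1, without CSD replicate 1), from 0 to 2 in choroid plexus cells (Nab2, and without HC replicate 1 also Nr4a2 at 1.61) and from 0 to 3 in the other classes. In choroid plexus cells it was 0 with DESeq2 and 0 under library totals. In the other classes it was 1 without a filter on low counts and 2 with the replicate block, where capillary Nr4a1 (0.61, adjusted p = 0.0481, edgeR) and Nr4a2 (0.71, adjusted p = 0.0453) passed. Libraries with the same number came from no stated shared batch, and the correlation of their deviations was 0.46 in microglia, 0.065 in endothelial cells and 0.069 in choroid plexus cells. Of all genes, the block called 36 in endothelial cells (5 without it), 17 in microglia (0) and 177 in capillary cells (10), DESeq2 called 53, 1 and 45, and the fit without a filter called 32, 23 and 177. With 1 library left out, the lone library of a group is assumed to vary like the other group, and the genes called ran from 6 to 419 of all in endothelial cells and from 0 to 60 in choroid plexus cells. Along the vessel, 3 to 5 differences were called when a library was left out, and the stricter gate left too few cells for a value. Microglia and endothelial cells differed in 5 to 6 genes.

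Some log2 differences that passed no test changed sign. In cells with at least 5000 UMIs, the endothelial values of Egr1 and Egr3 were -0.047 and -0.39. In microglia Egr1 was at -0.017 under library totals, and Nab1 and Nr4a2 were at -0.15 and -0.29 under the stricter gate. Between microglia and endothelial cells, Egr3 was at 0.010 without a filter on low counts, Nr4a3 at -0.038 under library totals, and Nr4a1 at -0.095 with DESeq2, -0.080 with its size factors, -0.11 in cells of at least 1000 UMIs, -0.042 under the stricter gate and -0.29 under library totals. Nab1 between arterial and venous cells was at -0.0040 in cells of at least 1000 UMIs. When each library was left out, the CSD minus HC values in endothelial cells ran from -0.041 to 0.59 for Egr1, -0.44 to 1.37 for Egr2 and -0.28 to 1.37 for Egr3. In microglia they ran from -0.36 to 0.35 for Egr1, -0.15 to 0.28 for Egr2, -0.83 to 0.66 for Egr3, -0.23 to 0.35 for Nab1, -0.82 to 0.54 for Nab2, -0.56 to 0.37 for Nr4a1, -1.66 to 3.20 for Nr4a2 and -0.50 to 1.32 for Nr4a3. In choroid plexus cells Nr4a1 ran from -0.075 to 0.41 and Nr4a3 from -0.81 to 1.5, and in capillary cells Egr3 from -0.16 to 1.68. Microglia minus endothelial values ran from -0.25 to 0.13 for Egr3, -0.35 to 0.32 for Nr4a1 and -0.17 to 0.58 for Nr4a3. Venous minus capillary values ran from -0.93 to 0.00048 for Egr3 and -0.091 to 0.63 for Nr4a1, and arterial minus venous values from -0.018 to 0.28 for Egr1. The cause was not tested for any of these.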
